A study of Mus musculus with 12 samples.

Results

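Fatty acid oxidation and ketogenesis are described here through 49 genes of mouse liver, among 36047 annotated genes measured in the same libraries. The members were taken from a list of gene symbols drawn up by pathway, with no threshold on a measured value although earlier results of these data were known, and all 49 passed the filter on low counts that left 14670 genes for testing. Liver RNA was sequenced from 12 male C57Bl/6J mice aged 5 to 6 months, 3 in each group, after 7 days on their diets. RF.Ctrl mice ate a regular-fat control diet and RF.SAAR mice a regular-fat diet restricted in sulfur amino acids, whereas HF.Ctrl and HF.SAAR mice ate the high-fat versions of these diets. All of the diets lacked cysteine, restriction lowered methionine with glutamic acid added in its place, and all mice were singly housed and went without food for 4 h before the livers were taken. Per the study's methods, the mice were also injected with deuterium-labelled water at the start and then drank water enriched with it. Each library is 1 mouse, and the number given to a mouse within its group is only a name.

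Fatty acids taken up by hepatocytes are bound by carrier proteins, activated to acyl-CoA by synthetases and passed into mitochondria by the carnitine shuttle, where each round of beta-oxidation uses a dehydrogenase, a hydratase, a hydroxyacyl dehydrogenase and a thiolase and yields acetyl-CoA. Peroxisomes carry a parallel set of enzymes that begins with an acyl-CoA oxidase and shortens very long, branched and dicarboxylic chains. In the fasted liver the acetyl-CoA is made into ketone bodies, and many genes of both organelles are known targets of the nuclear receptor PPAR-alpha.

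Of the 49 members, 23 were placed in mitochondria. They are the carnitine shuttle genes Cpt1a, Cpt2, Slc25a20 and Crat, the acyl-CoA dehydrogenases Acadl, Acadm, Acads, Acadsb, Acadvl, Acad10 and Acad11, the later cycle enzymes Hadha, Hadhb, Hadh, Echs1 and Acaa2, the auxiliary enzymes Eci1 and Decr1 for unsaturated chains, the electron carriers Etfa, Etfb and Etfdh, the thioesterase Acot2 and the pyruvate dehydrogenase kinase Pdk4. Another 15 were placed in peroxisomes, namely Acox2, Acox3, Ehhadh, Hsd17b4, Acaa1a, Acaa1b, Eci2 and Decr2 of the oxidation cycle, the thioesterases Acot3, Acot4 and Acot8, and the transport and division genes Abcd2, Abcd3, Crot and Pex11a. The 2 ketogenic members are Acat1 and Bdh1. The other 9 activate, take up or bind fatty acids or act in the cytosol or outside the cell, and they are Acsl1, Acsl3, Acsl4, Acsl5, Slc27a2, Slc27a4, Fabp1, Acot1 and Vnn1.

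PPAR-alpha is known to bind with RXR to 2 copies of the half-site AGGTCA separated by 1 base. Promoter windows from RefSeq on GRCm38.p6, which run from 250 bases before to 50 bases after an annotated start, were matched for 42 of the 49 members, and a match was counted on either strand with at most 2 mismatches over the 12 bases of the half-sites. Of 32851 windows in the whole table, 3.86% held a match, against 6 of the 47 windows of members, or 12.8%. The 6 matches are printed because Fabp1 is the most abundant member and Acot4 was called after restriction, and the other 4 complete the set. Each line reads 5′ to 3′ on the strand of its gene, with the 13 bases of the match in capitals, and for Fabp1, Etfa and Acot4 the half-sites lie on the opposite strand.
Fabp1, chr6:71199804-71199832, plus strand: acaatcacTGACCTATGGCCTatatctga
Echs1, chr7:140116484-140116512, minus strand: gcccgctcAGGTCACGGGTCCacccctta
Etfa, chr9:55512300-55512328, minus strand: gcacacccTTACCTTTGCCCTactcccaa
Slc25a20, chr9:108662134-108662162, plus strand: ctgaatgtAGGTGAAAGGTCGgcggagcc
Acot4, chr12:84038358-84038386, plus strand: ccgaagcaTGACCTTTGGCCGgtctgtgc
Acox2, chr14:8258810-8258838, minus strand: gctgtcccAGGACAGAGGTGAgtcaagag

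Only the Fabp1 match had 1 mismatch, and the other 5 had 2. The first base of the match lay 67 bases before the RefSeq start of Fabp1 and 13 bases before that of Acot4, while those of Slc25a20 and Acox2 began at bases 7 and 10 of the transcribed sequence. A match is a run of letters and not evidence of binding, and binding was not measured in these samples.

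The libraries held between 16203094 and 21230092 estimated read counts. Hepatocyte markers summed to between 50360 and 72150 TPM (transcript abundance corrected for length and scaled to the same total in every mouse) in every mouse, which fits the label of liver. A second tissue was present in part of the libraries. The 22 genes of the pancreatic acinar list, none of which was at 0, summed to between 113 and 153 TPM in 7 mice and to more than 1000 TPM in the other 5, which were RF.Ctrl mouse 1 at 1417, HF.Ctrl mouse 1 at 1528, HF.Ctrl mouse 2 at 4772, HF.SAAR mouse 2 at 4260 and HF.SAAR mouse 3 at 23620 TPM. Most of the calls of members for restriction given below were lost when these 5 libraries were left out, and each is also given without them. That fit leaves 1 mouse in each high-fat group, and fewer of all genes were called in it too. The skeletal muscle list spanned 269 to 1041 TPM over the 12 mice. The adipocyte list spanned 789 to 2823 TPM, with the 3 HF.SAAR mice between 789 and 1271 TPM. Most of its sum was Car3 (means of 1838 TPM in HF.Ctrl and 1054 TPM in HF.SAAR mice), and its median log2 fold change on high fat was -0.06. The macrophage list was 164 to 235 TPM in the control mice and 225 to 284 TPM in the restricted mice. Its median log2 fold change was 0.0042 on regular and 0.26 on high fat, and edgeR called none of its genes for restriction. The endothelial list was 97.9 to 131 TPM in control and 126 to 161 TPM in restricted mice, with medians of 0.10 and 0.11. Of its genes, edgeR called Lyve1 higher averaged over fat (log2 fold change of 0.55, adjusted p of 0.00746). Serpina1c of the hepatocyte list was called lower on both fat levels and averaged over fat. Also called lower were Car3 on high fat and averaged over fat, Lrat (stellate list) on regular fat and averaged, and Spp1 (cholangiocyte list) averaged. The part of these other cells in the results was not tested.

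On the TPM scale, which allows genes to be compared with each other, the members covered a wide range. Fabp1, the main fatty acid binding protein of the hepatocyte cytosol, led with a mean of 7597 TPM over the 12 mice and ranged from 4336 to 9360 TPM. The next levels were those of Slc27a2, a very long chain acyl-CoA synthetase and transporter, at 697 TPM, the mitochondrial thiolase Acaa2 at 577 TPM and the subunits Etfb and Etfa of the electron transfer flavoprotein at 514 and 440 TPM. Among peroxisomal genes the isomerase Eci2 was highest at 356 TPM. The ketogenic enzymes Acat1, which joins 2 acetyl-CoA, and Bdh1, which reduces acetoacetate to 3-hydroxybutyrate, stood at 195 and 175 TPM. At the lower end were Pdk4 at 4.72 TPM, Acot2 at 2.64 TPM, the transporter Abcd2 at 2.63 TPM and Acot3 at 2.39 TPM. The median of the member means was 157 TPM for the mitochondrial, 88.3 TPM for the peroxisomal and 33.8 TPM for the activation, uptake and binding genes.

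**Figure D1:**
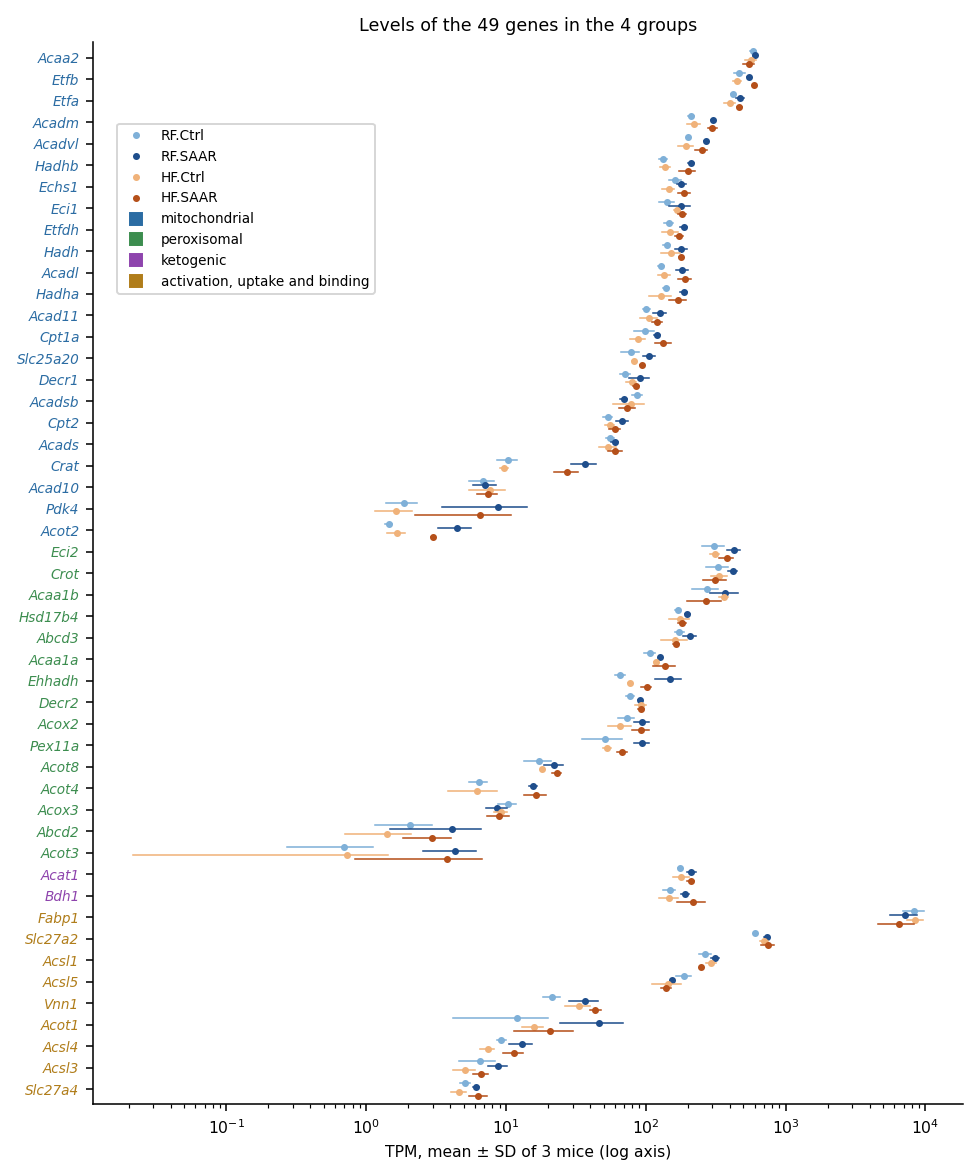
TPM of each of the 49 genes in the 4 groups, as the mean (point) and SD (line) of 3 mice on a log axis, with genes ordered by compartment and mean level and names coloured by compartment. Fabp1 at a mean of 7597 TPM lies far to the right of every other member, and the points of the restricted and control groups separate most clearly for Crat, Acot4, Acot2 and Pdk4.

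The first question the design asks is what restriction did to these genes on regular fat. In RF.SAAR against RF.Ctrl mice, 3 members rose (Crat, Acot2 and Ehhadh), 2 fell (Acadsb and Acsl5) and 44 did not pass an adjusted p of 0.05 in edgeR's quasi-likelihood test with Benjamini-Hochberg adjustment over all 14670 genes. Over all genes tested, 0.6% were called higher and 0.879% lower. On high fat, in HF.SAAR against HF.Ctrl mice, 1 member rose (Crat) and 3 fell (Acadsb, Acox3 and Acsl1), with backgrounds of 1.01% higher and 0.961% lower. Averaged over both fat levels, which uses all 12 mice, 6 members rose (Crat, Pdk4, Acot4, Acot2, Ehhadh and Hadhb) and 5 fell (Acox3, Acadsb, Acsl5, Acaa2 and Acsl1), and 38 were not called, beside 3.21% of all genes called higher and 3.7% called lower. DESeq2 called 6 members higher and 3 lower on regular fat, with backgrounds of 2.13% and 2.67%, then 3 higher and 7 lower on high fat (2.47% and 2.18%) and 7 higher and 5 lower averaged over fat (4.62% and 4.4%). Its calls held every member called by edgeR in the same comparison. It added Acot4, Hadhb, Pdk4 and Acox3 on regular fat, Acot4, Pdk4, Acaa1b, Acaa2, Acsl5 and Crot on high fat, and Acot3 averaged over fat. In the paragraphs on single genes, called means called by edgeR unless DESeq2 is named. All values given per mouse are CPM (counts per library, scaled to the same total with edgeR's TMM factors).

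The log2 fold change was smaller than 0.5 in either direction for 39 of 49 members on regular fat and for 39 of 49 on high fat, compared with 12650 and 12539 of 14670 genes. On regular fat the median log2 fold change was 0.07 for the 23 mitochondrial, 0.08 for the 15 peroxisomal and 0.04 for the 2 ketogenic genes, and on high fat it was -0.09, -0.08 and 0.06, beside a median over all genes of -0.0014 in both comparisons. The negative medians on high fat turned positive when only library size was used for scaling, at 0.076 for the mitochondrial and 0.095 for the peroxisomal genes, where the median of all genes moved to 0.17. Cpt1a, the outer membrane transferase that sets the rate of entry into mitochondria, measured 404 ± 54.4 CPM in RF.Ctrl, 410 ± 16.3 in RF.SAAR, 404 ± 46.1 in HF.Ctrl and 475 ± 35.4 in HF.SAAR mice (SD, n = 3). Its log2 fold change was 0.02 ± 0.11 (SE) on regular fat, with an interval of 2 SE from -0.21 to 0.25. On high fat it was 0.23 ± 0.11, with an interval from 0.0033 to 0.46 and an adjusted p of 0.439 in edgeR. In TPM Cpt1a was at 98.4 ± 15.9 in RF.Ctrl, 121 ± 5.62 in RF.SAAR, 87.9 ± 10.9 in HF.Ctrl and 133 ± 17.2 in HF.SAAR mice (SD, n = 3). Every restricted mouse was above every control in TPM, so the size of its difference depended on the scale.

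**Figure D2:**
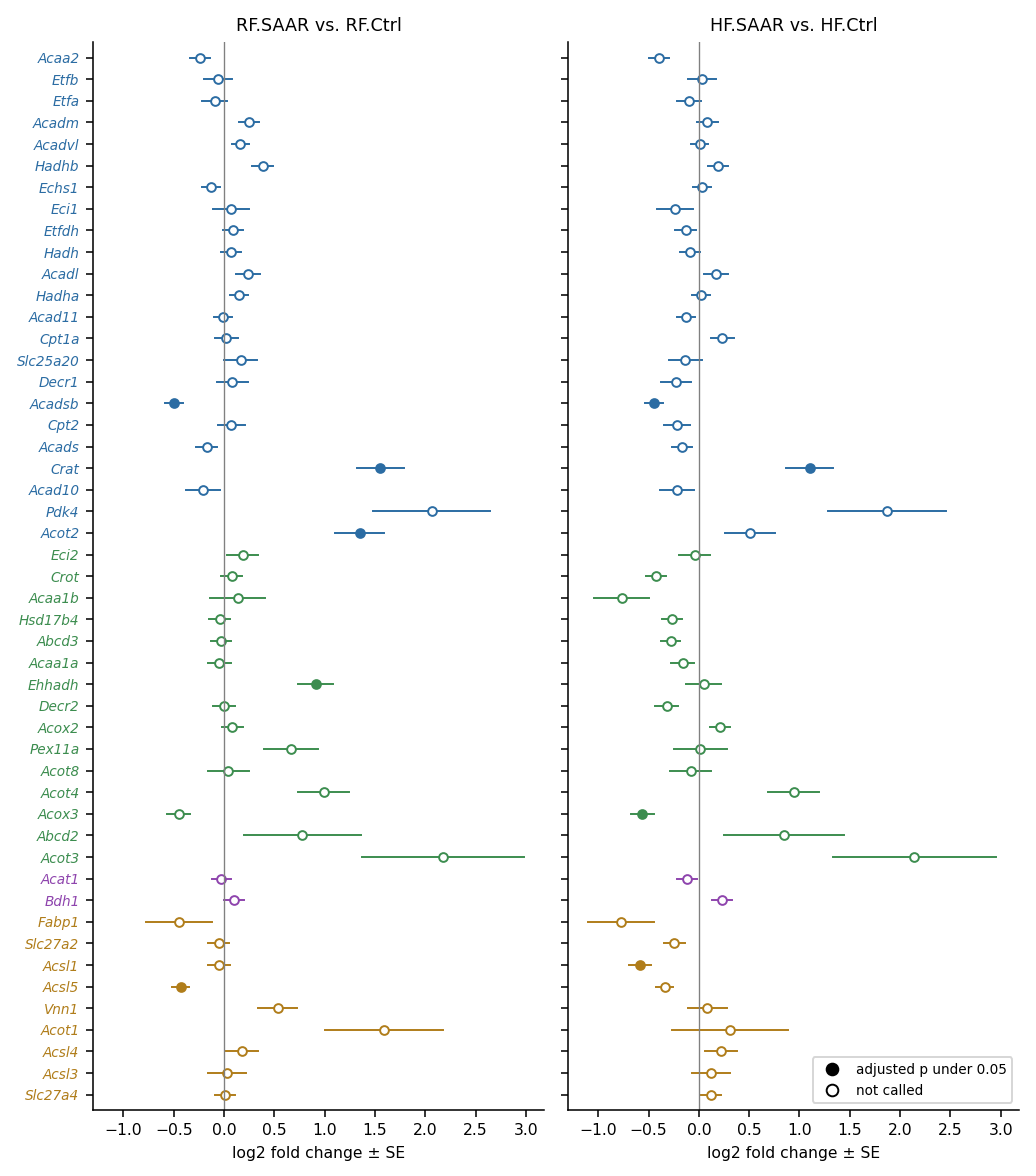
Log2 fold change (point) and SE (line) of each member for restriction on regular fat (left) and on high fat (right), from edgeR, with filled points for an adjusted p under 0.05 and gene names coloured blue for mitochondrial, green for peroxisomal, purple for ketogenic and ochre for activation, uptake and binding. Filled points are Crat, Acot2, Ehhadh, Acadsb and Acsl5 on the left and Crat, Acadsb, Acox3 and Acsl1 on the right.

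Crat encodes carnitine acetyltransferase, which moves acetyl groups between CoA and carnitine and so buffers mitochondrial acetyl-CoA. It was at 24.3, 16.9 and 13.7 CPM in the RF.Ctrl mice and at 36.6, 69.7 and 55.0 CPM in the RF.SAAR mice. On high fat it was at 20.2, 20.3 and 17.8 CPM in the controls and at 43.1, 46.0 and 36.1 CPM under restriction. Every restricted mouse was above every control mouse, and the highest was RF.SAAR mouse 2. The log2 fold change was 1.55 ± 0.24 (SE) on regular fat with an adjusted p of 0.00787, 1.10 ± 0.23 on high fat with an adjusted p of 0.0344, and 1.33 ± 0.17 averaged over fat with an adjusted p of 0.000639, all in edgeR. Of the 13 annotated transcripts of this gene on chr2:30400471-30415813, minus strand, the leading one carried 41.5% of its TPM and is annotated for nonsense-mediated decay. A protein-coding transcript with 24.7% of the TPM gave a log2 fold change of 1.26 averaged over fat (adjusted p of 0.0204 in the fit on single transcripts), beside 1.49 for the leading one (adjusted p of 0.00587). Without the 5 libraries the values were 1.81 (adjusted p of 0.0667), 1.255 (0.472) and 1.53 (0.0473) in the same order. The other shuttle genes were not called on either fat level. Cpt2, the inner membrane transferase, had log2 fold changes of 0.07 ± 0.13 and -0.22 ± 0.13.

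Pdk4, the kinase that switches off pyruvate dehydrogenase and so favours fat as fuel, had the widest spread among the called members. Its values were 5.38, 4.502 and 8.20 CPM in RF.Ctrl mice, 10.8, 24.9 and 39.8 in RF.SAAR mice, 6.69, 4.95 and 4.45 in HF.Ctrl and 32.3, 7.96 and 18.4 in HF.SAAR mice. The restricted mice lay above the controls of their own fat level, yet they differed among themselves from 7.96 to 39.8 CPM. Averaged over fat the log2 fold change was 1.97 ± 0.41 (SE) with an adjusted p of 0.0226 in edgeR. Within regular fat it was 2.07 ± 0.58 and within high fat 1.87 ± 0.59, and neither passed the threshold in edgeR, at adjusted p-values of 0.140 and 0.195, whereas DESeq2 called Pdk4 on both fat levels. The averaged value was 2.42 with an adjusted p of 0.250 without the 5 libraries rich in acinar genes.

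**Figure D3:**
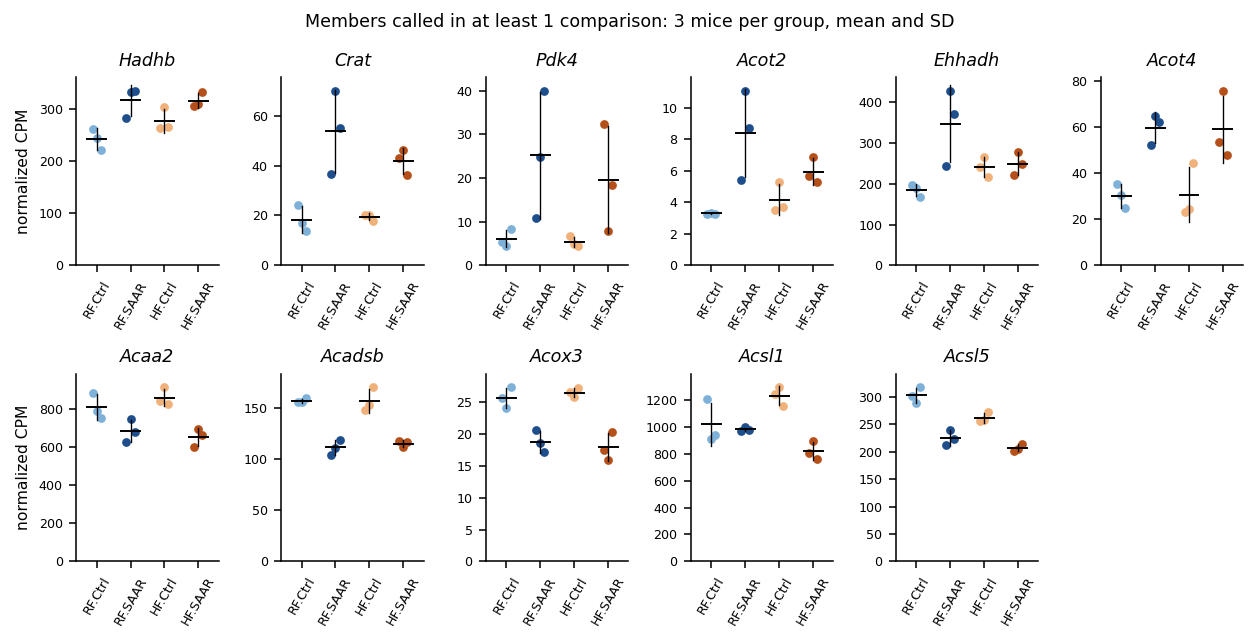
Normalized CPM of the 11 members called in at least 1 comparison, with a point for each mouse, a bar for the mean and a line for the SD of 3 mice, and vertical axes that start at 0. The upper row holds the 6 members that rose with restriction averaged over fat and the lower row the 5 that fell, and Ehhadh separates the regular-fat groups while its high-fat groups overlap.

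Ehhadh, the bifunctional hydratase and dehydrogenase of peroxisomes, rose on regular fat. It was at 196, 190 and 167 CPM in the RF.Ctrl mice and at 243, 427 and 372 CPM in the RF.SAAR mice, and the log2 fold change was 0.91 ± 0.17 (SE) with an adjusted p of 0.0185 in edgeR. In HF.Ctrl mice it was at 242, 265 and 216 CPM and in HF.SAAR mice at 220, 278 and 248 CPM, and these groups overlapped, with a log2 fold change of 0.05 ± 0.17 and an adjusted p of 0.958. The difference between the effects on high and regular fat, tested as the interaction, was -0.86 ± 0.24 on the log2 scale with an unadjusted p of 0.00334 and an adjusted p of 0.999, and so was not called. Averaged over fat the rise was 0.48 ± 0.12 with an adjusted p of 0.0302. Leaving out the 5 libraries gave 0.96 on regular fat with an adjusted p of 0.172 and 0.48 averaged over fat with an adjusted p of 0.325.

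The acyl-CoA thioesterases split acyl-CoA into free fatty acid and CoA, and 4 of them lie in a row on chromosome 12, plus strand, at 83987861 to 83993873 (Acot2, mitochondrial), 84009490 to 84018371 (Acot1, cytosolic), 84038379 to 84048601 (Acot4, peroxisomal) and 84052144 to 84060402 (Acot3, peroxisomal) of GRCm38. These paralogs share sequence, so the counting may have divided reads among them and the value of any 1 of them is uncertain. Acot2 was at 3.26, 3.32 and 3.28 CPM in the RF.Ctrl group and at 5.44, 11.03 and 8.68 CPM in the RF.SAAR group, with no overlap. In HF.Ctrl mice it was at 3.48, 5.28 and 3.72 CPM and in HF.SAAR mice at 5.68, 6.87 and 5.28 CPM, where the lowest restricted mouse lay just under the highest control. The log2 fold change was 1.35 ± 0.25 (SE) on regular fat with an adjusted p of 0.0155, 0.51 ± 0.25 on high fat with an adjusted p of 0.425, and 0.93 ± 0.17 averaged over fat with an adjusted p of 0.00619 in edgeR. In the 7 other libraries the regular-fat value was 1.34 (adjusted p of 0.119) and the averaged one 0.97 (0.137).

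Acot4, a peroxisomal thioesterase known to act on dicarboxylic chains, was at 35.0, 30.3 and 24.8 CPM in the RF.Ctrl group and at 52.2, 64.8 and 61.9 CPM in the RF.SAAR group. On high fat the controls were at 23.0, 24.5 and 44.4 CPM and the restricted mice at 53.4, 75.3 and 47.9 CPM. All restricted mice were above all controls of the same fat level. Averaged over fat, Acot4 rose, with a log2 fold change of 0.97 ± 0.18 (SE) with an adjusted p of 0.00815 in edgeR, and the separate values of 0.99 ± 0.25 and 0.94 ± 0.25 had adjusted p-values of 0.0909 and 0.0957 and were called by DESeq2. Without the 5 libraries the averaged value was 0.68 with an adjusted p of 0.0445. For Acot3 the RF.Ctrl mice were at 2.35, 2.15 and 0.608 CPM and the RF.SAAR mice at 4.58, 12.6 and 6.16 CPM, and averaged over fat its log2 fold change was 2.16 ± 0.57 with an adjusted p of 0.0538 in edgeR, and it was called by DESeq2. For Acot1 the RF.Ctrl mice were at 38.7, 20.9 and 10.03 CPM and the RF.SAAR mice at 30.0, 104 and 75.5 CPM, which overlap, with a log2 fold change of 1.59 ± 0.59 and an adjusted p of 0.273, and on high fat its value was 0.31 ± 0.58. Acot8, a peroxisomal thioesterase on chromosome 2, gave 0.04 on regular fat and -0.08 on high fat.

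Hadhb encodes the thiolase subunit of the mitochondrial trifunctional protein. It was at 262, 245 and 221 CPM in RF.Ctrl mice, 283, 334 and 335 in RF.SAAR mice, 263, 304 and 266 in HF.Ctrl and 307, 310 and 334 in HF.SAAR mice. Averaged over fat it rose, with a log2 fold change of 0.29 ± 0.07 (SE) with an adjusted p of 0.0313 in edgeR, and by 0.31 with an adjusted p of 0.244 when the 5 libraries were left out. Its partner Hadha, the hydratase and dehydrogenase subunit, lies head to head with it on chromosome 5 and was at 371 ± 15.8 CPM in the RF.Ctrl group and 411 ± 34.6 in the RF.SAAR group, 383 ± 3.12 in HF.Ctrl and 389 ± 26.2 in HF.SAAR mice (SD, n = 3), and it was not called.

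Acadsb, the dehydrogenase of short and branched chains that also breaks down isoleucine, fell on both fat levels. It was at 156, 156 and 160 CPM in RF.Ctrl mice, 104, 111 and 119 in RF.SAAR mice, 148, 154 and 170 in HF.Ctrl and 118, 112 and 117 in HF.SAAR mice. All 6 restricted mice were below all 6 controls. The log2 fold change was -0.50 ± 0.09 (SE) on regular fat with an adjusted p of 0.0161, -0.45 ± 0.09 on high fat with an adjusted p of 0.0225 and -0.47 ± 0.06 averaged over fat with an adjusted p of 0.000741 in edgeR. The transcript with the most TPM, 49.2% of the gene, is annotated as a retained intron and gave -0.50 averaged over fat, and a protein-coding transcript with 14.9% gave -0.54. In TPM the gene was at 77.9 ± 19.6 in HF.Ctrl and 74.0 ± 9.26 in HF.SAAR mice (SD, n = 3), and with offsets for effective transcript length the high-fat call was lost. With the 5 libraries left out the values were -0.50 (adjusted p of 0.125), -0.55 (0.42) and -0.53 (0.053). The 6 other dehydrogenases were not called in any comparison of diets, and their log2 fold changes averaged over fat ran from -0.21 for Acad10 to 0.20 for Acadl, the long-chain enzyme.

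Acaa2, the mitochondrial thiolase that closes the cycle and the most abundant mitochondrial member, was at 887, 788 and 755 CPM in RF.Ctrl mice, 630, 748 and 680 in RF.SAAR mice, 844, 914 and 824 in HF.Ctrl and 602, 696 and 662 in HF.SAAR mice. The restricted mice were below the controls at each fat level. The log2 fold change averaged over fat was -0.32 ± 0.07 (SE) with an adjusted p of 0.0143 in edgeR, or -0.32 with an adjusted p of 0.216 without the 5 libraries. On each fat level alone edgeR did not call it, at -0.24 ± 0.10 and -0.40 ± 0.10 with adjusted p-values of 0.292 and 0.0586, and DESeq2 called it on high fat. On the TPM scale Acaa2 was at 588 ± 27.4 in the RF.Ctrl group and 605 ± 5.94 in the RF.SAAR group (SD, n = 3), so the direction on regular fat depended on the scale.

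Acox3, a peroxisomal oxidase of branched chains, was at 25.6, 24.1 and 27.4 CPM in RF.Ctrl mice, 20.7, 18.6 and 17.2 in RF.SAAR mice, 26.6, 25.8 and 27.2 in HF.Ctrl and 17.6, 16.0 and 20.3 in HF.SAAR mice. Every restricted mouse lay below every control. It fell by a log2 fold change of -0.56 ± 0.11 (SE) on high fat with an adjusted p of 0.0201 and by -0.51 ± 0.08 averaged over fat with an adjusted p of 0.00208 in edgeR, and its value of -0.45 ± 0.11 on regular fat had an adjusted p of 0.0713. The high-fat call was lost with offsets for effective length, at -0.37 with an adjusted p of 0.24, and in TPM Acox3 was at 9.165 ± 0.9999 in HF.Ctrl and 8.98 ± 1.62 in HF.SAAR mice (SD, n = 3). The 7 libraries low in acinar genes gave -0.65 on high fat (adjusted p of 0.41) and -0.55 averaged over fat (0.0767). Eci2, the most abundant peroxisomal member, was at 390, 252 and 265 CPM in RF.Ctrl mice, 310, 353 and 370 in RF.SAAR mice, 312, 395 and 302 in HF.Ctrl and 322, 331 and 328 in HF.SAAR mice, with overlapping groups and a log2 fold change of 0.07 ± 0.11 averaged over fat.

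The acyl-CoA synthetases activate fatty acids for every later step. Acsl5 was at 303, 289 and 318 CPM in RF.Ctrl mice, 212, 240 and 223 in RF.SAAR mice, 256, 259 and 273 in HF.Ctrl and 202, 206 and 214 in HF.SAAR mice. It fell by -0.43 ± 0.09 (log2, SE) on regular fat with an adjusted p of 0.0252 and by -0.38 ± 0.06 averaged over fat with an adjusted p of 0.00211 in edgeR, and stood at -0.34 ± 0.09 on high fat with an adjusted p of 0.0667. Leaving out the 5 libraries gave it -0.43 on regular fat (adjusted p of 0.189) and -0.44 averaged over fat (0.101). Acsl1, the main long-chain synthetase of liver, was at 1204, 912 and 938 CPM in the RF.Ctrl group and 970, 995 and 978 in the RF.SAAR group, which overlapped, and at 1245, 1292 and 1152 CPM in HF.Ctrl and 808, 895 and 762 in HF.SAAR mice, which did not. Its log2 fold change was -0.05 ± 0.11 on regular fat, -0.58 ± 0.11 on high fat with an adjusted p of 0.0152 and -0.32 ± 0.08 averaged over fat with an adjusted p of 0.0242. Without the 5 libraries the last 2 became -0.53 (adjusted p of 0.41) and -0.22 (0.341). The interaction for Acsl1 was -0.53 ± 0.15 with an unadjusted p of 0.00427 and an adjusted p of 0.999, so the effects on the 2 fat levels were not shown to differ. Acsl3 and Acsl4 were not called.

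Fabp1 was at 3158, 2640 and 2076 CPM in RF.Ctrl mice, 1311, 2345 and 2115 in RF.SAAR mice, 3283, 3705 and 2190 in HF.Ctrl and 1108, 2451 and 1815 in HF.SAAR mice. The groups overlapped, and the lowest values were those of RF.SAAR mouse 1 and HF.SAAR mouse 1. The log2 fold change averaged over fat was -0.61 ± 0.23 (SE) with an adjusted p of 0.166 in edgeR.

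Neither ketogenic member was called by edgeR or DESeq2 for restriction, and Bdh1 had an unadjusted p of 0.0352 on high fat and 0.0322 averaged over fat. Acat1 was at 595, 532 and 532 CPM in RF.Ctrl mice, 519, 620 and 493 in RF.SAAR mice, 592, 643 and 625 in HF.Ctrl and 562, 595 and 557 in HF.SAAR mice, and the log2 fold change was -0.07 ± 0.07 (SE) averaged over fat with an interval of 2 SE from -0.21 to 0.07. Bdh1 was at 255 ± 11.6 CPM in RF.Ctrl, 274 ± 7.37 in RF.SAAR, 279 ± 3.78 in HF.Ctrl and 328 ± 44.5 in HF.SAAR mice (SD, n = 3), and averaged over fat its log2 fold change was 0.17 ± 0.07 with an adjusted p of 0.195.

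Signs of change were compared between the fat levels, whose mice are separate. Of the 49 members, 21 had a log2 fold change above 0 on both fat levels, 15 below 0 on both and 13 of opposite sign, so 73.5% had the same sign, beside 66.2% of all genes tested. In edgeR, Crat and Acadsb were called on both, and in DESeq2 also Acot4, Pdk4, Acox3 and Acsl5. All 3 RF.SAAR mice lay above all 3 RF.Ctrl mice for 7 members and below them for 4, where 8.5% and 9.71% of all genes did so. On high fat, 6 members had all restricted mice above and 15 had all below, and the shares of all genes were 8.88% and 8.96%. These counts and shares are of CPM scaled with TMM. The 15 were Cpt2, Acads, Acadsb, Acad10, Acad11, Acaa2, Acox3, Hsd17b4, Acaa1b, Decr2, Abcd3, Crot, Acsl1, Acsl5 and Slc27a2, and 3 of them were called lower by edgeR and 7 by DESeq2. Crot, which exports medium chains from peroxisomes as carnitine esters, was the nearest of the rest in edgeR and was called by DESeq2. It was at 992, 1027 and 1006 CPM in HF.Ctrl and at 789, 673 and 791 CPM in HF.SAAR mice, and the log2 fold change was -0.43 ± 0.10 (SE) with an adjusted p of 0.0506.

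**Figure D4:**
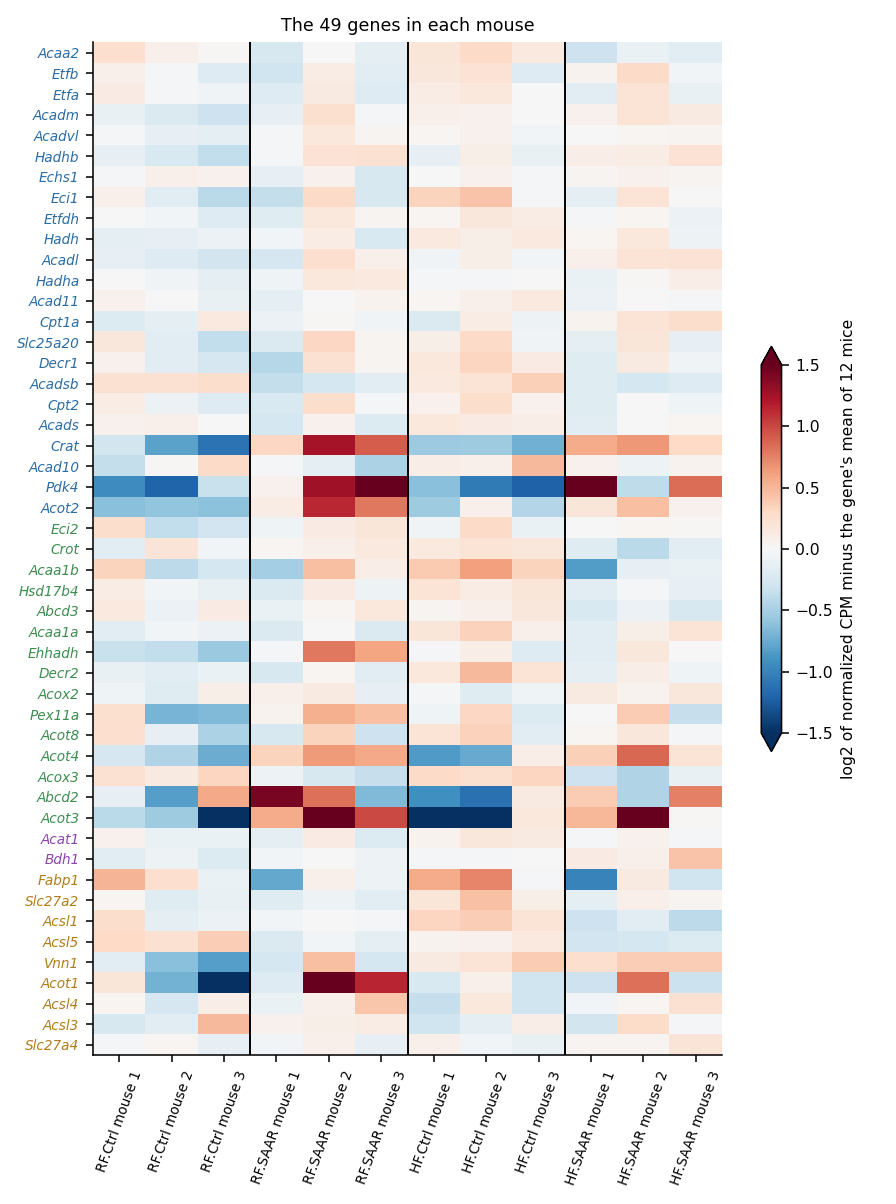
Log2 of normalized CPM of each member in each mouse, less that gene's mean over the 12 mice (colour, with values beyond 1.5 in either direction drawn at the end colour), with vertical lines between groups. Acot3, Acot1, Pdk4, Abcd2 and Crat carry most of the strong colour, and RF.SAAR mouse 2 was the highest of its group for 37 of 49 members.

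Mice of 1 group also differed across the list. RF.SAAR mouse 2 was the highest of its group for 37 of the 49 members and RF.SAAR mouse 1 the lowest for 37. RF.Ctrl mouse 1 was the highest of its group for 30, HF.Ctrl mouse 2 for 29 and HF.SAAR mouse 2 for 30. These last 3 are among the 5 libraries with more than 1000 TPM of acinar genes, whereas of the other 2, HF.SAAR mouse 3 with the most acinar RNA was highest for 16 and lowest for 13, and HF.Ctrl mouse 1 was highest for 6 and lowest for 17.

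The next question is what dietary fat did. In HF.Ctrl against RF.Ctrl mice no member was called by edgeR or by DESeq2. In edgeR 10 of the 49 had an unadjusted p under 0.05, as did 526 of 14670 genes. Of all genes, 0% were called by edgeR and 0.212% by DESeq2 in that comparison. The member log2 fold changes leaned to higher values on high fat, with 42 above 0 and 7 below and a median of 0.16, beside a median of 0.0015 over all genes. Under scaling by library size alone the split was 35 above and 14 below with a median of 0.11. Vnn1, the pantetheinase that recycles CoA precursors, had the largest value, at 54.2, 39.4 and 34.3 CPM in RF.Ctrl and 67.2, 70.4 and 79.7 CPM in HF.Ctrl mice, a log2 fold change of 0.76 ± 0.20 (SE) with an adjusted p of 0.688 in edgeR. In HF.SAAR against RF.SAAR mice no member was called by either tool, beside 0.0477% of all genes called by edgeR and 0.564% by DESeq2. There 5 members and 820 of 14670 genes had an unadjusted p under 0.05 in edgeR, and 22 members lay above 0 and 27 below. Averaged over diet, edgeR called none of the members and 0.0409% of all genes, and DESeq2 called Vnn1 and 0.762% of all genes. In edgeR, 8 members and 857 of 14670 genes had an unadjusted p under 0.05 there. The interaction of diet and fat was called for no member by either tool, beside 0.00682% of all genes called by edgeR and 0.103% by DESeq2. An unadjusted p under 0.05 in edgeR was found for 5 members (Ehhadh, Crot, Acsl1, Acot2 and Acaa1b) and 462 of 14670 genes. The sign of the interaction was negative for 37 members and positive for 12, with a median of -0.16 (log2) beside 0.01 over all genes. Under library size alone the split was the same 37 to 12.

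Scaling moved the count of members. The TMM factors were 0.945 to 0.979 in the RF.Ctrl group and 1.03 to 1.11 in the RF.SAAR group, and 0.863 to 0.998 in HF.Ctrl and 0.980 to 1.076 in HF.SAAR mice. Without them, the median log2 fold change of all genes for restriction averaged over fat was 0.16, and 20 members were called in edgeR, 17 higher and 3 lower, against 6 and 5 with them. Under that scaling 14.8% of all genes were called higher and 1.87% lower. On regular fat it gave 7 members higher and 0 lower, beside 2.45% and 0.45% of all genes, and on high fat 2 higher and 1 lower, beside 4.36% and 0.545%. The 17 included Acadm, Acadl, Acadvl, Cpt1a, Hadha and Bdh1, and the log2 fold changes of 39 members lay above 0 instead of 23. Relative to the median of all genes, the median of the members was near 0 under both scalings, at -0.01 with TMM and 0.15 beside that 0.16 without. In TPM, whose sum is fixed within a mouse, the 23 mitochondrial members summed to 3446 ± 147 in the RF.Ctrl group and 4200 ± 126 in the RF.SAAR group and to 3407 ± 307 in HF.Ctrl and 4115 ± 232 in HF.SAAR mice (SD, n = 3). The peroxisomal sums, in the same order of groups, were 1664 ± 69.0, 2230 ± 125, 1788 ± 172 and 1859 ± 176 TPM. The sums of the activation, uptake and binding genes, most of which is Fabp1, were 9416 ± 1429, 8504 ± 1545, 9672 ± 1006 and 7648 ± 1860 TPM. In such bulk samples a change in RNA per cell cannot be told apart from a change in the share of cells of a type.

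**Figure D5:**
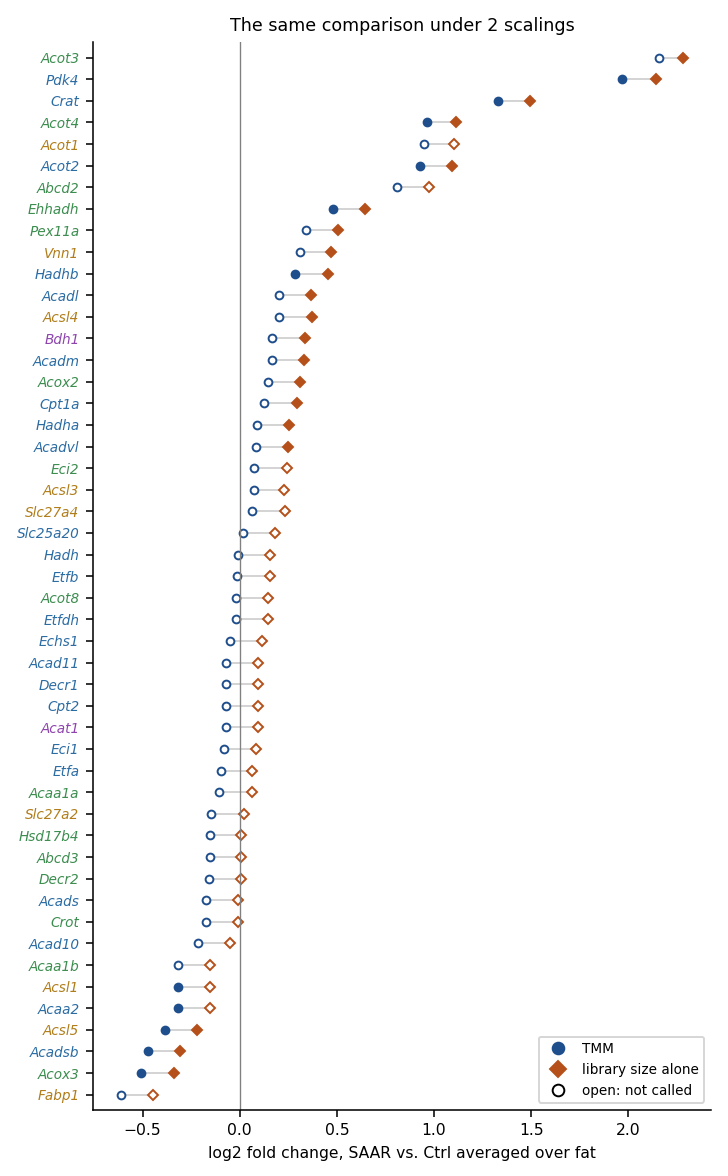
Log2 fold change of each member for restriction averaged over fat, with TMM factors (circles) and with library size alone (diamonds), filled where the adjusted p in edgeR was under 0.05 and sorted by the TMM value. Every diamond lies to the right of its circle, and 20 diamonds are filled against 11 circles.

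Part of these calls was lost when 1 mouse was left out, and in those fits fewer of all genes were called too. On regular fat, the count of called members fell from 5 to 1, Crat alone, when any 1 of the 3 RF.Ctrl mice was left out. It was 3 without RF.SAAR mouse 1 or 2 and 2 without RF.SAAR mouse 3. Over all genes the count fell from 217 to 99, 99 and 87 without RF.Ctrl mouse 1, 2 and 3. Without RF.SAAR mouse 1, 2 and 3 it was 124, 153 and 94. On high fat the count of members fell from 4 to 0 without HF.Ctrl mouse 1 or HF.SAAR mouse 1. It was 1 without HF.SAAR mouse 2 or 3 and 2 without HF.Ctrl mouse 3. Over all genes the count fell from 289 to 110, 119, 173, 154 and 158 in the same order of mice. Averaged over fat the count of members fell from 11 to 7 without HF.Ctrl mouse 1, and that of all genes from 1014 to 655. Without the 5 libraries rich in acinar genes, an alternative chosen after seeing the data that leaves 1 mouse in each high-fat group and assumes that a lone mouse varies like the rest, the calls were Acot4 and Pex11a on regular fat, none on high fat, and Acot4 and Crat averaged over fat. Fewer of all genes were called in that fit too, on each fat level and averaged over fat. The log2 fold changes of the members called with all mice kept their direction there, and the peroxisomal median was 0.24 on regular and 0.01 on high fat. With the 22 acinar genes removed and all mice kept, the same members were called as in the full table.

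Other genes of these pathways were read from a list of 58, of which 53 were tested. On regular fat 1 rose and 3 fell in edgeR, beside 0.6% and 0.879% of all genes tested. On high fat 2 rose and 2 fell, beside 1.01% and 0.961%. Averaged over fat 5 rose and 12 fell, beside 3.21% and 3.7%, with a median log2 fold change of -0.08. Scp2, whose products include the peroxisomal thiolase for branched chains, and Slc27a5, the bile acid-CoA ligase and fatty acid transporter, fell on both fat levels, by log2 fold changes of -0.49 ± 0.11 and -0.57 ± 0.11 (SE) for Scp2 and -0.42 ± 0.09 and -0.44 ± 0.09 for Slc27a5. Slc22a5, the plasma membrane carnitine transporter, rose on regular fat, from 26.4, 19.8 and 17.9 CPM to 32.6, 50.2 and 50.02 CPM, a log2 fold change of 1.05 ± 0.21 with an adjusted p of 0.0275 in edgeR. The kinase Pdk1 fell there by -0.69 ± 0.15 with an adjusted p of 0.036. Acacb, which makes the malonyl-CoA that inhibits Cpt1, rose on high fat from 12.5, 13.9 and 11.9 CPM to 21.9, 31.8 and 22.5 CPM, at 0.99 ± 0.17 with an adjusted p of 0.0079. On regular fat it was at 29.8 ± 5.63 CPM in control and 29.2 ± 2.36 CPM in restricted mice (SD, n = 3), so that the HF.Ctrl mice were the low group. Vnn3 rose on high fat by 0.53 ± 0.11. By smallest p averaged over fat, Cd36, the fatty acid receptor, rose by 0.65 ± 0.12, and Amacr, Hsd17b10 and Acsm2 fell by -0.43, -0.47 and -0.92 (log2).

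Of 15 peroxisome biogenesis genes only Pex11g was called, lower on regular fat at -0.54 ± 0.11 (log2, SE) and lower averaged over fat at -0.39 ± 0.08. Of all genes tested, 0.879% and 3.7% were called lower in those comparisons. Among 29 other PPAR-alpha targets, 3 rose on regular fat (Cyp4a31, Cyp4a14 and Cyp4a10, omega-hydroxylases), beside 0.6% of all genes called higher. On high fat 3 rose and 2 fell, beside 1.01% and 0.961% of all genes. Averaged over fat 8 rose and 3 fell, beside 3.21% and 3.7%, with a median of 0.22. Cyp4a14 was at 47.4, 19.1 and 22.6 CPM in the RF.Ctrl group and at 513, 1561 and 357 CPM in the RF.SAAR group. Cyp4a31 rose by 2.999 ± 0.34 on regular fat and 2.43 ± 0.33 on high fat, with adjusted p-values of 0.0024 and 0.00403 in edgeR, and Cyp4a12b fell on high fat by -1.64 ± 0.30. The Cyp4a genes are close paralogs, so their values may share reads. Fgf21, a hormone induced by PPAR-alpha and by amino acid stress, rose on high fat by 4.41 ± 0.77 with an adjusted p of 0.0241. On regular fat it went from 1.49, 2.61 and 0.669 CPM to 20.04, 8.64 and 35.8 CPM, with no overlap, at 3.73 ± 0.75 with an adjusted p of 0.0533, and averaged over fat it rose by 4.07 ± 0.54. Ctsl rose and Ephx2 fell on high fat.

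Among 23 regulators, 2 rose on high fat (Ppargc1a and Fgf21) and 3 averaged over fat (Fgf21, Ppargc1a and Esrra). Of all genes tested, 1.01% and 3.21% were called higher in those comparisons. Ppargc1a, a coactivator of oxidation genes, was at 6.89, 9.01 and 7.07 CPM in HF.Ctrl and at 22.9, 15.4 and 14.0 CPM in HF.SAAR mice, and the log2 fold change was 1.18 ± 0.23 (SE) with an adjusted p of 0.0185. Ppara itself was at 68.6 ± 14.9 CPM in RF.Ctrl, 80.2 ± 13.9 in RF.SAAR, 78.5 ± 24.1 in HF.Ctrl and 86.9 ± 6.00 in HF.SAAR mice (SD, n = 3) and was not called, with a log2 fold change of 0.19 ± 0.15 averaged over fat.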

How the data were processed

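Liver RNA of 12 mice was measured by polyA-selected, paired-end sequencing. Per the labels and the study's methods, the authors checked reads with FastQC, trimmed them with cutadapt and quantified transcripts with kallisto on the mouse Ensembl transcriptome, and the deposited tables hold estimated counts, TPM and effective lengths per transcript. In the labels the fields for diet and dietary fat hold each other's values, and groups were read from the values. Of 118489 transcripts, 116816 matched GENCODE M21 (GRCm38), and the unmatched share of counts was 0.704% to 1.8% per mouse. Estimated counts were summed by gene and rounded. The main test was edgeR 4.0.16 in R 4.3.3 with TMM, filterByExpr by group, 1 coefficient per group over all 12 mice, robust quasi-likelihood and Benjamini-Hochberg adjustment, and DESeq2 1.42.0 was an alternative, which stood in the study's methods as the main test. The fits were checked on simulated counts. An SE is the size of the log2 fold change over the root of F. Intervals cover the spread between mice and no batch was labelled. Alternatives were DESeq2's size factors in edgeR, library size alone, no filter, a minimum of 10 counts in every mouse, the compared groups alone, effective length offsets, the acinar genes removed, the leading transcript and each mouse left out, and, chosen after seeing the data, the 5 libraries with over 1000 TPM of acinar genes left out.

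Members and gene lists were chosen with earlier results of these data known. All 49 members are listed. Those called in any of 7 comparisons, and the most abundant member of each compartment, are given with each mouse, and other lists by counts with at most 6 called genes. Crot, Cpt1a and other uncalled genes given with values were chosen after their values were seen. No protein sequences were used.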

Additional observations from a re-analysis of the deposited data

How the results depend on the processing

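Called members on regular fat, on high fat and averaged over fat numbered 5, 4 and 11. DESeq2 gave 9 and 10 for the fat levels alone and 1 for high against regular fat averaged over diet, and the compared groups alone gave 3 and 2. The fit on single transcripts, with the leading transcript of each member, gave 0 and 0 and tested 35707 transcripts. Library size alone gave 20 averaged over fat, and the libraries low in acinar genes gave 2, 0 and 2, with peroxisomal medians of 0.24 on regular and 0.013 on high fat. Leaving out each mouse in turn gave 1 to 6, 0 to 5 and 7 to 11, and 0 to 1 for high against regular fat averaged over diet. The median log2 fold changes moved with library size alone to 0.23 (mitochondrial, regular fat), 0.076 (mitochondrial, high fat), 0.25 (peroxisomal, regular fat) and 0.10 (peroxisomal, high fat), by construction since this drops the TMM factors. Leaving out a mouse gave -0.014 to 0.19 and -0.15 to -0.032 for the mitochondrial and 0.023 to 0.24 and -0.21 to 0.035 for the peroxisomal median, on regular and on high fat in turn. For the other changes the cause was not tested.

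Of 20 calls of single members, none changed sign under any alternative, and 2 held in all of them, Crat and Acot4 averaged over fat. Over 429 combinations of call and alternative, 318 kept the call and 111 lost it. Over all genes, 217 and 289 were called on the fat levels by edgeR and 591 and 595 by DESeq2, and 1014 were called averaged over fat, or 2449 with library size alone and 236 in the libraries low in acinar genes. No paired analysis was possible because the labels give the mice no shared numbers. With 3 mice a group, members such as Acot3 near 2 TPM have wide errors.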
